A study of Mus musculus with 8 samples.

Results

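The 9 genes described here encode enzymes of cholesterol synthesis (Hmgcs1, Idi1, Sqle, Cyp51, Nsdhl, Sc5d and Dhcr7) and components of its transcriptional control (Srebf2 and Insig1). They were chosen by name, and all 9 were found among the 12404 genes of the count table after Ensembl identifiers were paired with symbols. The cells were TM3, an established line of mouse Leydig cells, which are the testosterone-producing cells of the testis. Cells exposed to bisphenol A (BPA), a building block of plastics with estrogen-like activity, were set against normal TM3 cells with no exposure named in the labels. RNA-seq was run for both conditions, and so was MeRIP-seq, an assay that pulls down RNA fragments bearing N6-methyladenosine (m6A) with an antibody. There were 2 libraries per condition and assay. All groups share the same cell line and no genetic change is named. The labels give neither a dose nor an exposure time, nor whether replicates were separate cultures, so p-values reflect only how far these libraries differ, possibly for technical reasons.

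Cholesterol is built from acetyl-CoA through mevalonate, isoprenoid units, squalene and a series of sterols. The transcription factor SREBP2, made from Srebf2, drives these genes: when sterols are scarce, SCAP carries it from the endoplasmic reticulum to the Golgi, where proteases release its active part. When sterols are plentiful, INSIG proteins hold the SCAP and SREBP2 complex back. In Leydig cells cholesterol is the starting material for testosterone.

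SREBP2 binds sterol regulatory elements, usually close to boxes for the factors NF-Y and Sp1, so the promoters of 3 of the genes are shown. Hmgcs1 was abundant in every library, whereas Insig1 and Nsdhl had few or no reads in BPA-exposed cells. Each line gives the 250 bases before the RefSeq transcription start in build GRCm38.p6, read 5′ to 3′ on the plus strand, where all 3 genes lie. They cover chr13:119690101-119690350 for Hmgcs1, chr5:28071162-28071411 for Insig1 and chrX:72918271-72918520 for Nsdhl. Capitals mark matches on either strand to the sterol element core TCACNCCAC, the NF-Y box CCAAT and the Sp1 box GGGCGG, and no matches overlap in these stretches.
Hmgcs1: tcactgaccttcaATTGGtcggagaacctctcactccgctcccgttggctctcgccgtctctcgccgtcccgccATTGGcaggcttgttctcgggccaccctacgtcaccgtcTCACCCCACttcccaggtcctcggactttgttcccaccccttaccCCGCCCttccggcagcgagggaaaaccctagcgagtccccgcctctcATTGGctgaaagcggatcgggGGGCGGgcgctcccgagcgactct
Insig1: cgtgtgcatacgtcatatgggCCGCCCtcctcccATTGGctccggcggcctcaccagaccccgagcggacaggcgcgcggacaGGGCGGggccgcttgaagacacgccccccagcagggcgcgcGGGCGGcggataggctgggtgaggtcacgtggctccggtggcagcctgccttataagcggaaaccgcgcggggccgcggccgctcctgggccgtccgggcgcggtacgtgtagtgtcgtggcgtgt
Nsdhl: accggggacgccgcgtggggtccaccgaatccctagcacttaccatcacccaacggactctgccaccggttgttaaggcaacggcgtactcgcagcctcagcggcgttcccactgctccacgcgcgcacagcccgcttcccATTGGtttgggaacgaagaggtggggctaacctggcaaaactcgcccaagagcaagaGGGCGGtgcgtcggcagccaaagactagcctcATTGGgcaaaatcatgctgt

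RefSeq windows running from 250 bases before to 50 bases after a start were held for 8 of the 9 genes, and Sqle had none in the table used. The sterol element core was found in 1 of the 8, Hmgcs1, where its first base lies 137 bases before the start, against 1.24% of all 32851 windows. A CCAAT box was found in at least 1 window of all 8 genes, against 37.4% of all windows. A GGGCGG box was likewise found in all 8, against 35.7% of all windows. Dhcr7 had 3 windows and could match in any of them. These matches describe letters in a window and say nothing about binding in TM3 cells. Whether they bear on the RNA levels was not tested.

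The 4 RNA-seq libraries held 8813870 and 6305121 reads in BPA and 10455643 and 7517482 reads in normal cells. Genes with 10 or fewer reads made up 49.1% and 54.9% of the table in BPA, against 28.3% and 22.8% in normal cells. Replicates agreed loosely, with a Spearman coefficient, over 8645 tested genes that are no independent replicates, of 0.549 in BPA and 0.741 in normal cells. Of the 10 Leydig markers listed, Scarb1 alone was a row of the table, so the steroidogenic identity of the cells could not be checked from the others. Scarb1, the receptor gene for high-density lipoprotein, had 195 and 61.9 CPM in BPA and 39.7 and 19.2 CPM in normal cells, higher in BPA without overlap, with a log2 fold change of 2.13 ± 1.10 (SE, adjusted p of 0.382 in edgeR). Summed Sertoli markers (3 of 7 in the table) lay at 266 and 135 CPM (counts scaled to library size) in BPA and 166 and 296 CPM in normal cells. The macrophage list (Cd68 and Cd14 of 5) gave 21.0 and 81.5 CPM in BPA and 0 and 19.4 CPM in normal cells, and Acta2, the peritubular marker found of 4 listed, gave 57.9 and 237 CPM against 6.93 and 45.1 CPM. Within these sums Cd68 was higher in BPA without overlap (20.2 and 81.5 CPM against 0 and 7.57 CPM), whereas Cd14 overlapped. Of the Sertoli markers, Clu was higher in BPA without overlap (38.9 and 38.3 CPM against 19.2 and 0.128 CPM), whereas Wt1 and Dhh overlapped. No germ cell marker (0 of 4) was in the table. All samples are labelled as the TM3 line, so the labels name no other cell type whose share could differ. In bulk RNA, fewer expressing cells and less RNA per cell cannot be told apart. The part of these markers in the results was not tested.

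The comparison of BPA-exposed with normal cells asked whether the RNA of these genes differed. Of the 9 genes, 3 lay higher in both BPA libraries than in both normal ones, namely Hmgcs1, Sqle and Sc5d. Insig1 and Nsdhl lay lower in both, and Idi1, Cyp51, Dhcr7 and Srebf2 overlapped. Across all tested genes 12.8% lay higher without overlap and 27.2% lower. None of the 9 differences passed the quasi-likelihood test of edgeR (Benjamini-Hochberg adjusted over all 8645 tested genes), all 9 being among those tested. The same test called 0 genes in all (0.0%), while an unadjusted p under 0.05 was found for 208 higher (2.41%) and 625 lower genes (7.23%). DESeq2 called 264 genes (3.05%) and 0 of the 9.

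**Figure D1:**
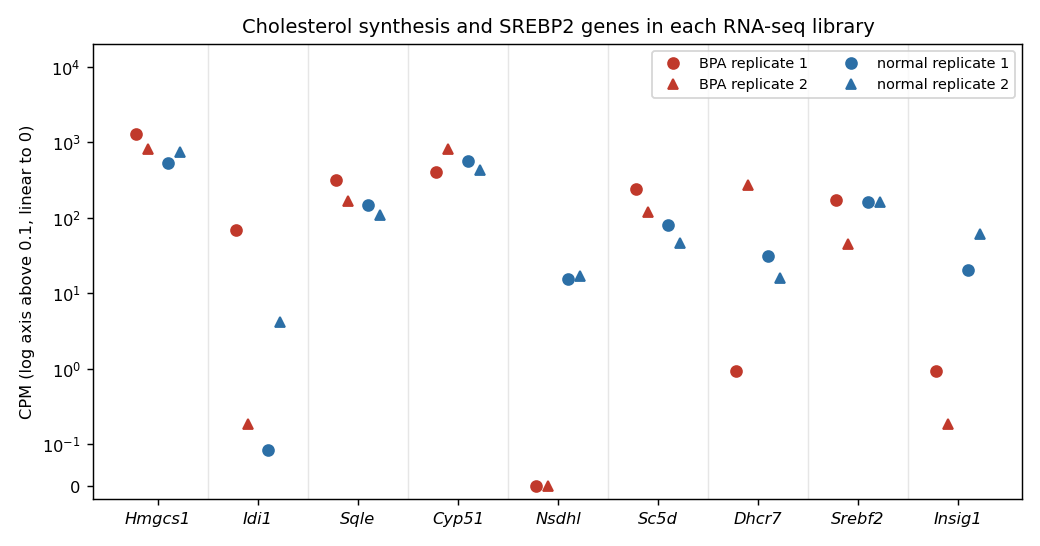
CPM of each gene in each library, on an axis that is logarithmic above 0.1 and linear below it, with BPA in red and normal in blue and 1 point per library. Hmgcs1, Sqle and Sc5d lie higher in both BPA libraries, Insig1 and Nsdhl lower, and Idi1 and Dhcr7 differ by over 100-fold between the BPA replicates.

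Hmgcs1 encodes the cytosolic HMG-CoA synthase, an early enzyme of the mevalonate branch. It had 1281 and 806 CPM in BPA and 524 and 748 CPM in normal cells. The groups did not overlap, although BPA replicate 2 stood close to normal replicate 2. The means were 1043 ± 336 CPM in BPA and 636 ± 158 CPM in normal cells (SD, n = 2 each), and the log2 fold change from edgeR was 0.73 ± 0.44 (SE) with an adjusted p of 0.488. Leaving out each library in turn gave 0.40 to 1.06 on the log2 scale.

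Idi1 encodes isopentenyl diphosphate isomerase, which converts between the isoprenoid building blocks. It had 601 and 1 reads in BPA and 1 and 33 reads in normal cells. A single library, BPA replicate 1, held nearly all its reads. The edgeR log2 fold change was 4.53 ± 2.28 (SE, adjusted p of 0.374), and it turned to -3.09 without BPA replicate 1. Without normal replicate 2 it was 8.70. Idi1 has a close paralog, Idi2, and the sources used here do not say whether reads shared between copies were counted.

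Sqle encodes squalene epoxidase, which catalyses a rate-limiting step after squalene. It had 319 and 167 CPM in BPA and 146 and 110 CPM in normal cells. As for Hmgcs1, the BPA values were higher without overlap and their lower value came from replicate 2. The log2 fold change was 0.95 ± 0.71 (SE, adjusted p of 0.617 in edgeR), and it lay between 0.42 and 1.34 when libraries were left out in turn.

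Cyp51 encodes the lanosterol 14-alpha demethylase. It had 407 and 805 CPM in BPA and 558 and 424 CPM in normal cells. The BPA libraries stood on either side of the normal ones. The log2 fold change of 0.28 ± 0.51 (SE, adjusted p of 0.873 in edgeR) turned to -0.24 without BPA replicate 2 and to -0.01 in a fit restricted to genes averaging 1000 reads or more.

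Nsdhl encodes a sterol dehydrogenase that acts in removing the methyl groups at the sterol C4 position. It had 0 reads in both BPA libraries and 177 and 134 reads in normal cells. Against a floor of 3 counts over the BPA group it was at least 74.8-fold lower in BPA by counting error alone. In edgeR its unadjusted p, 0.0480, was the smallest among the 9, and its adjusted p was 0.372. The unadjusted p of Nsdhl was the 1 among the 9 that lay under 0.05. Such losses were common in these libraries: of 1914 tested genes with 100 to 500 reads in both normal libraries, 325 (17.0%) had 0 reads in both BPA libraries. Counting up to 10 reads in each BPA library, it was 551 (28.8%).

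Sc5d encodes the lathosterol oxidase that introduces the C5 double bond late in the pathway. It had 243 and 120 CPM in BPA and 80.2 and 46.2 CPM in normal cells. The groups did not overlap, and replicate 1 was the higher library in each condition. Sc5d averaged 182 ± 87.2 CPM in BPA and 63.2 ± 24.1 CPM in normal cells (SD, n = 2 each). The log2 fold change was 1.52 ± 0.87 (SE, adjusted p of 0.439 in edgeR), and it lay between 0.93 and 2.17 with each library left out in turn. As the groups did not overlap, leaving out a library could change its sign only through the scaling.

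Dhcr7 encodes 7-dehydrocholesterol reductase, which completes cholesterol in the Kandutsch-Russell branch. It had 8 and 1438 reads in BPA and 362 and 125 reads in normal cells. The BPA replicates lay on opposite sides of the normal range. The log2 fold change of 2.25 ± 1.47 (SE, adjusted p of 0.539 in edgeR) therefore rested on BPA replicate 2 and was -4.68 without it. Idi1 and Dhcr7 were not alone in this pattern: 1033 of the 8645 tested genes (11.9%) had at least 500 reads in a BPA library and 10 or fewer in the other, against 59 (0.683%) for the normal pair.

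Srebf2, the gene of the regulator itself, had 173 and 45.0 CPM in BPA and 162 and 163 CPM in normal cells. Normal replicates were nearly equal, and BPA replicate 1 was at their level while BPA replicate 2 was lower. The log2 fold change was -0.48 ± 0.83 (SE, adjusted p of 0.867 in edgeR). Without BPA replicate 1 it was -1.80, and leaving out BPA replicate 2 instead gave 0.13. The Srebf2 gene also hosts Mir33, a microRNA gene whose own product these counts do not measure.

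Insig1, a target of SREBP2 whose product restrains it, had 8 and 1 reads in BPA and 232 and 469 reads in normal cells. Both BPA libraries were far below both normal libraries. Pooled over libraries, BPA had 0.0178 of the normal level, the exact 95% interval being 0.00810 to 0.0340 for counting error alone. Against the spread between libraries the log2 fold change was -5.82 ± 2.96 (SE), with an adjusted p of 0.379 in edgeR and 0.175 in DESeq2. With each library left out in turn it lay between -7.48 and -4.90. As the groups did not overlap, its sign could change there only through the scaling. In the GRCm38 annotation the gene overlaps that of the long noncoding RNA Gm35223. The sources used here do not say whether counting used strand.

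**Figure D2:**
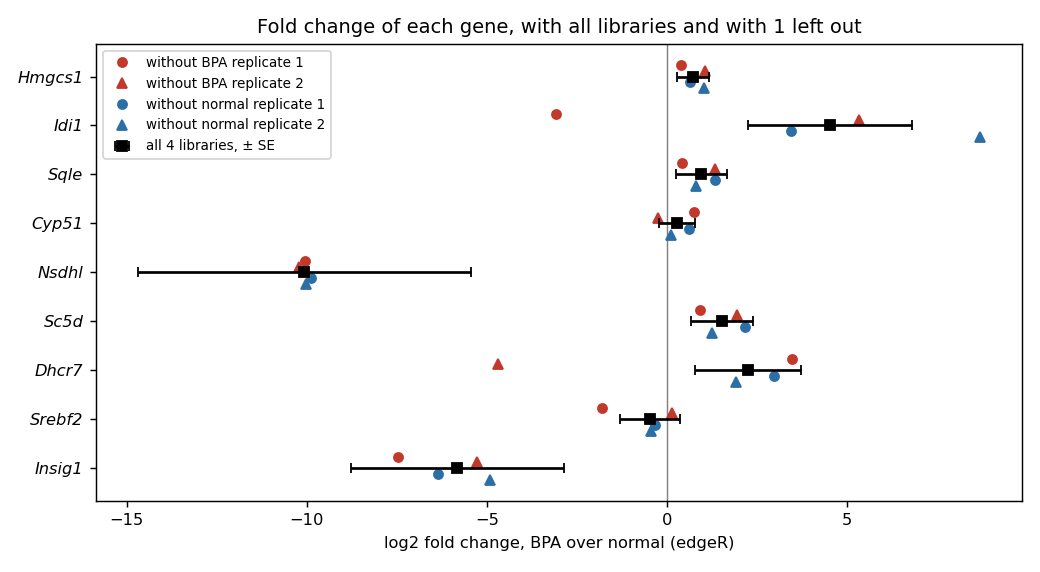
Log2 fold change of BPA over normal for each gene from edgeR with all 4 libraries (black squares, bars ± SE) and with 1 library left out (coloured points, red for a BPA library left out, blue for a normal one). Idi1 moves to -3.09 without BPA replicate 1 and Dhcr7 to -4.68 without BPA replicate 2. Nsdhl and Insig1 stay negative and Hmgcs1, Sqle and Sc5d positive, which their non-overlapping groups fix in advance apart from the scaling.

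Of the 9 genes, 6 had a positive and 3 a negative log2 fold change, with a median of 0.73. Over all tested genes 49.5% were positive and the median was -0.02. The summed level of the 9 genes was 2494 and 2212 CPM in BPA and 1538 and 1587 CPM in normal cells. Hmgcs1 and Cyp51 made up most of these sums, and the 5 other enzymes together had 633 and 556 CPM in BPA and 273 and 193 CPM in normal cells. Which enzyme carried that smaller sum differed between the BPA libraries, with Dhcr7 at 0.930 CPM in replicate 1 and 269 CPM in replicate 2.

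Hmgcs1, Sqle, Cyp51, Sc5d and Srebf2 averaged 1000 reads or more. In a fit of the 1756 genes at that abundance, the median shift in log2 fold change relative to the fit of all genes was -0.27. There Hmgcs1 had 0.47, Sqle 0.68, Sc5d 1.25 and Srebf2 -0.76 on the log2 scale, with the same signs as in the fit of all genes. Cyp51 changed sign, from 0.28 in the fit of all genes to -0.01.

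The tested genes whose pattern over the 4 libraries was nearest to the mean profile of the 9, by Euclidean distance of centred log2 CPM, were Kpna4 (0.112), Nudt5 (0.192) and Eftud2 (0.216). Kpna4 had 110 and 72.7 CPM in BPA and 144 and 173 CPM in normal cells. That mean profile was lower in BPA, at -0.17 and -0.67 against 0.22 and 0.61 in normal cells on the centred log2 scale. Its direction is opposite to that of the median log2 fold change of the 9 genes. A mean, unlike a median, weighs the size of each change. The largest were those of Nsdhl (-10.07) and Insig1 (-5.82) as log2 fold changes, both lower in BPA.

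Other genes of the pathway gave a similarly mixed picture. Of 13 further synthesis enzymes, 12 were in the table and 8 were tested, with 6 positive and 2 negative log2 fold changes and a median of 0.74. edgeR called 0 of them, and 2 had an unadjusted p under 0.05, both higher in BPA, where 2.41% of all tested genes were. Lbr, which encodes a sterol reductase of the inner nuclear membrane, had 1586 and 1203 reads in BPA and 278 and 445 reads in normal cells. Its log2 fold change was 2.40 ± 0.93 (SE, unadjusted p of 0.0217 and adjusted p of 0.372 in edgeR), and the groups did not overlap. Hsd17b7, a 3-keto sterol reductase gene, had 13 and 1601 reads in BPA and 1 and 90 reads in normal cells. Its log2 fold change of 4.80 ± 1.98 (SE, adjusted p of 0.372 in edgeR) came from BPA replicate 2 and was -1.61 without it.

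Fdft1, which makes squalene, had 417 and 1125 reads in BPA and 450 and 916 reads in normal cells. Lss, which closes the sterol rings, had 840 and 2 reads in BPA and 388 and 247 reads in normal cells. For Lss the BPA replicates again lay on opposite sides of the normal pair. Fdps was not among the rows of the table and is not analysed here.

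Genes with 10 or fewer reads in both BPA libraries numbered 2 of the 9, Insig1 and Nsdhl, and 5 of the 12 other enzymes in the table, against 37.4% of all 12404 genes. Those 5 were Pmvk, Mvd, Ggps1, Tm7sf2 and Ebp, chosen here after their values were seen, and 2 of them, Tm7sf2 and Ebp, also had 10 or fewer reads in both normal libraries. Mvd, of the mevalonate branch, had 0 reads in both BPA libraries and 420 and 0 reads in normal cells, so its presence in normal cells rested on replicate 1. Ggps1, which makes geranylgeranyl diphosphate, had 2 and 0 reads in BPA and 316 and 39 reads in normal cells. Ebp had 6 and 3 reads in BPA and 0 in both normal libraries.

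Of 11 genes that control SREBP processing or sterol-dependent degradation, all were in the table and 10 were tested, with 7 positive and 3 negative log2 fold changes, a median of 0.37, 0 called by edgeR and 0 with an unadjusted p under 0.05. Scap, the SREBP escort gene, was below the filter, with 1 and 0 reads in BPA and 629 and 6 reads in normal cells. Pooled over libraries, BPA had 0.00218 of the normal level, the exact 95% counting interval being 5.52e-05 to 0.0122, and normal replicate 1 supplied all but 6 of the normal reads. Insig2, the second INSIG gene, had 86.8 and 98.7 CPM in BPA and 49.6 and 119 CPM in normal cells. Its groups overlapped, at a log2 fold change of 0.19 ± 0.98 (SE), unlike those of Insig1. A test of the difference between Insig1 and Insig2 was not run. Srebf1, the paralog that mainly serves fatty acid synthesis, had 127 and 266 reads in BPA and 0 and 82 reads in normal cells (log2 fold change of 2.75 ± 1.94, SE, adjusted p of 0.582 in edgeR). With each library left out in turn the Srebf1 value lay between 1.59 and 10.95, the highest being without normal replicate 2.

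Of 9 targets of SREBP2 outside the synthesis chain, 7 were in the table and tested, with 2 positive (against 49.5% of all tested genes) and 5 negative log2 fold changes, a median of -0.37, 0 called by edgeR and 0 with an unadjusted p under 0.05. Of the 8 genes of the oxysterol receptor LXR and of cholesterol efflux or storage, 4 were in the table and 2 were tested, Soat1 at 0.66 and Abca1 at -0.38 on the log2 scale, with 0 called and 0 at an unadjusted p under 0.05.

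**Figure D3:**
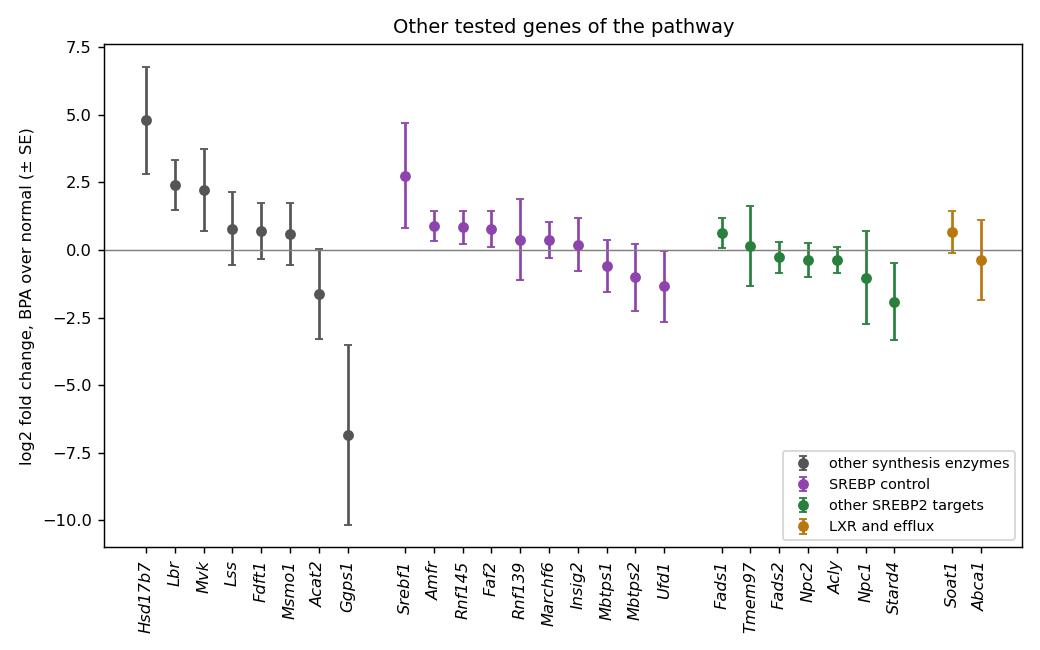
Log2 fold change of BPA over normal (points, bars ± SE, edgeR with 4 libraries) for 27 tested genes of the pathway outside the 9, grouped by role. Lbr (2.40) and Hsd17b7 (4.80) have an unadjusted p under 0.05, and the other SREBP2 targets have 5 of 7 values below 0.

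The m6A comparison asked where enrichment of RNA fragments by the antibody differed between the conditions. Peaks were deposited as a table of 3331 differential peaks. Each has 1 pooled value per condition for the immunoprecipitate (IP) and the input, so no replicate error can be given. Values are in RPM, reads scaled to a total that is not stated. Over the 3331 peaks they summed to 877723 (IP) and 894159 (input) in BPA. In normal cells the sums were 826089 (IP) and 884773 (input). The size of an RPM value is therefore not compared with CPM. By the design text, the RNA-seq libraries are the input. Of the 9 genes, 3 had a deposited peak, Hmgcs1, Sqle and Idi1, with 1 peak each, against 17.5% of the 12404 genes of the count table. The other 6 had none in this table of differential peaks, which does not say whether their RNA carries m6A. A false discovery rate of 0.05 in the authors' deposited table was passed by all 3 peaks, as by 100.0% of the 3331, and 0.01 by all 3, as by 99.0%. The authors' deposited table gives 68.8% of all peaks a positive log2 fold change, Sqle and Idi1 among them and Hmgcs1 not. From the RPM values with 1 added, IP over input was higher in BPA in 65.1% of peaks, again including Sqle and Idi1 but not Hmgcs1.

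The Hmgcs1 peak spanned 75 bases at chr13:120169203-120169277 on the plus strand, in coordinates read as GRCm39. Its IP held 372 RPM in BPA and 364 RPM in normal cells, and its input 963 RPM in BPA and 265 RPM in normal cells. The IP was thus nearly equal and the input higher in BPA. The log2 ratio of IP to input, with 1 RPM added, was -1.37 in BPA and 0.46 in normal cells. The authors' deposited table gives a log2 fold change of -1.05 and a false discovery rate of 6.82e-26.

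The Sqle peak spanned 25 bases at chr15:59202996-59203020 on the plus strand. Its IP held 654 RPM in BPA and 492 RPM in normal cells, whereas its input held 15.9 RPM in BPA and 679 RPM in normal cells. The log2 change of BPA over normal was 0.41 in the IP but -5.33 in the input. The difference in enrichment, 5.28 in BPA and -0.46 in normal cells as log2 IP over input, therefore came mostly from the input value. The authors' deposited table gives a log2 fold change of 6.60 and a false discovery rate of 6.01e-59. Over the whole gene, the RNA-seq table had 2744 and 895 Sqle reads in BPA and 1680 and 856 reads in normal cells, so the gene count was not lower in BPA where the input under the peak was.

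The Idi1 peak spanned 100 bases at chr13:8942208-8942307 on the plus strand. Its IP held 267 RPM in BPA and 99.8 RPM in normal cells, and its input 1.22 RPM in BPA and 369 RPM in normal cells. The BPA input value is the smallest above 0 in its column. The log2 IP over input was 6.91 in BPA and -1.88 in normal cells, and the BPA value was 4.62 with 10 RPM added and 7.66 with 0.1 RPM added. The authors' deposited table gives a log2 fold change of 10.4 and a false discovery rate of 1.23e-14. The input and the gene counts disagreed in direction here too: Idi1 had 601 and 1 reads in BPA and 1 and 33 reads in normal cells over the whole gene. RPM under a peak and reads of a gene are on unlike scales, so their sizes are not compared.

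**Figure D4:**
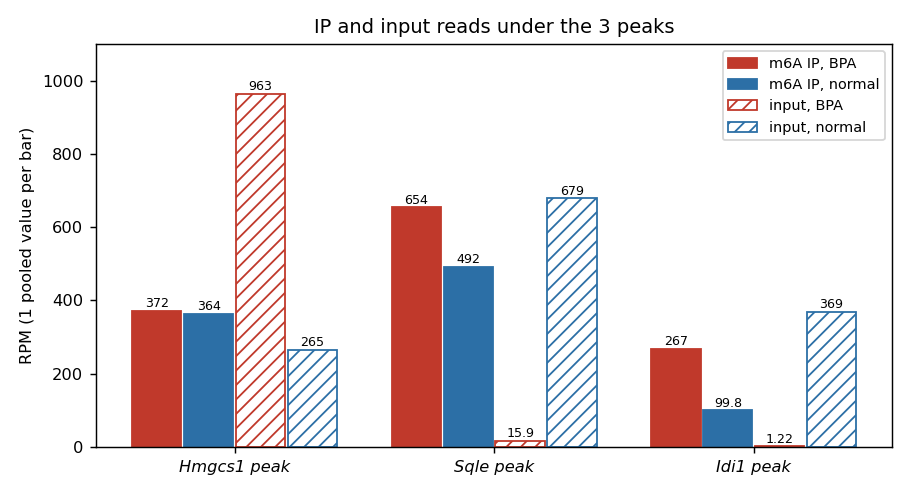
RPM under the peaks of Hmgcs1, Sqle and Idi1, with 1 bar per pooled value, filled for the m6A IP and hatched for the input, BPA in red and normal in blue. The IP bars of a peak are closer to each other than its input bars, and the BPA input of Sqle (15.9 RPM) and Idi1 (1.22 RPM) is close to 0.

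A low BPA input was common in the table. The input lay under 20 RPM in 53.1% of the 3331 peaks in BPA and in 12.6% in normal cells. The median log2 change of BPA over normal, with 1 RPM added, was 0.18 in the IP but -1.35 in the input, and the input change was the larger in absolute size in 62.5% of peaks. All 3 peaks of the cholesterol genes were of that kind. Deposited log2 fold changes were larger by 0.78 than the ratio of ratios taken from the RPM values (log2) in each of the 826 peaks with at least 100 RPM in all 4 columns. Without this constant the ratio of ratios was -1.83 for Hmgcs1, 5.83 for Sqle and 9.66 for Idi1 on the log2 scale.

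**Figure D5:**
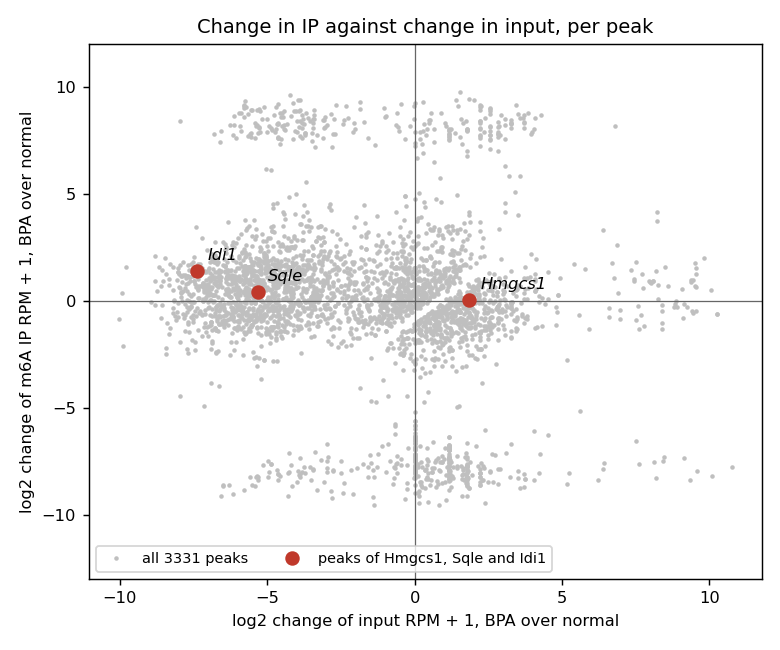
Log2 change of the m6A IP (vertical axis) against log2 change of the input (horizontal axis), BPA over normal with 1 RPM added, with 1 grey point per peak for all 3331 peaks and the peaks of Hmgcs1, Sqle and Idi1 in red. Sqle and Idi1 lie far to the left at an input change of -5.33 and -7.38, with an IP change of 0.41 and 1.41, and Hmgcs1 lies to the right at an input change of 1.86.

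Among the 34 other pathway genes in the count table, 7 had peaks, 10 in all, of which 6 had a positive and 4 a negative log2 fold change in the authors' deposited table. The genes and peaks named next were chosen after their values were seen. Marchf6, the gene of a ubiquitin ligase that degrades squalene epoxidase, had 3 of them. Its most covered peak held 615 RPM of IP in BPA and 186 RPM in normal cells, and 8.56 RPM of input in BPA and 436 RPM in normal cells. Fads1, a fatty acid desaturase gene, showed the reverse in its input, with 556 RPM in BPA and 23.5 RPM in normal cells, while its IP was 205 RPM in BPA and 195 RPM in normal cells. Rnf139, the gene of an endoplasmic reticulum ubiquitin ligase, differed in the IP, with 0 RPM in BPA and 217 RPM in normal cells. Its input was near the floor in both conditions, at 2.44 RPM in BPA and 0 RPM in normal cells. Ebp, with at most 6 reads in any RNA-seq library, had a peak with 175 RPM of IP in BPA and 110 RPM in normal cells. The input under that peak was low, at 11.0 RPM in BPA and 0 RPM in normal cells.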

How the data were processed

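Purified mRNA was fragmented and part of it enriched with an m6A kit before library preparation and paired-end sequencing, per the labels' protocols. Read counts per Ensembl gene were deposited by the authors as whole numbers. The submitters' processing notes name DESeq2 1.38.3, featureCounts 2.0.1, fastp 0.20.1 and HISAT2 2.2.1, and GRCh38 beside GRCm39 without a role. The count columns name a condition and a number, and their second condition, headed WT, was read as normal. These columns were treated as RNA-seq, although no column names its assay. In the peak table, Treated was read as BPA and Control as normal. No per-sample column was left unused. The peak RPM values were deposited by the authors as pooled columns on a total that is not stated, and reads behind them were not recovered. For every peak the authors deposited a log2 fold change, a p-value, a false discovery rate and a −log10 p-value. The sources used here name neither peak caller nor test. Starts were shifted to 1-based positions. Only 11.5% of 3179 peaks fell within their gene's GRCm38 span, so GRCm39 was assumed. Exon context is not analysed here.

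Symbols were found for 12271 identifiers (98.9%), Marchf6 through an older symbol. The count test was that of edgeR 4.0.16 under R 4.3.3 (TMM, filterByExpr with minimum count 10 and minimum total 15, robust quasi-likelihood fit with legacy = FALSE, Benjamini-Hochberg adjustment at 0.05 over all tested genes). Standard errors came from the F statistic, and CPM used TMM-scaled library sizes. The fit was tested on simulated data with far less spread between replicates than these libraries had. Their median coefficient of variation between replicates was 1.38, so the simulation does not show how the fit performs here. DESeq2 1.42.0, other scalings and filters, replicate number as a block and leaving out each library were the alternatives. Transcript lengths were not used, so levels are not compared between genes. A gene at 0 reads in a group gets a bound computed with 3 counts for that group. Counting error is all that floors and intervals include. The rule for named genes took the 9 genes, further pathway genes (Scap, Lss, Fdft1, Fdps, Srebf1 and Insig2), any listed pathway gene with an unadjusted p under 0.05, and the 3 genes averaging 5 or more in log2 CPM nearest to the mean profile. Some listed genes are not reported here and are left out of the list counts. Members and lists were chosen with earlier results of these data known.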

Additional observations from a re-analysis of the deposited data

How the results depend on the processing

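No library was excluded from the main comparison, and 0 of the 9 genes were called under any of the settings. Over all genes the count of calls was 0 in edgeR, 264 in DESeq2 and 0 to 1 when a library was left out. The 1 gene, named after its value was seen, was mt-Nd2 without normal replicate 1 (log2 fold change 1.34, adjusted p of 0.00800 in edgeR). The number of the 9 genes with a positive log2 fold change was 6, and it ranged from 5 to 6 with a library left out and was 3 of 5 among genes averaging 1000 reads or more, where fewer were tested. With replicate number as a block, 6 were positive and 0 genes were called, and an unadjusted p under 0.05 was found for 164 higher and 52 lower genes, against 208 and 625 without the block. The labels do not say that a replicate number marks a shared batch, so the numbers were not used as pairs. Deviations of same-numbered libraries had a correlation of -0.000963.

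Of 86 values of the 9 genes under other settings, 81 kept their direction and 5 reversed: Idi1 (-3.09) without BPA replicate 1, Cyp51 (-0.24), Dhcr7 (-4.68) and Srebf2 (0.13) without BPA replicate 2, and Cyp51 (-0.012) among abundant genes. With a library left out, log2 fold changes spanned -3.09 to 8.70 for Idi1, -0.24 to 0.76 for Cyp51, -4.68 to 3.48 for Dhcr7 and -1.80 to 0.13 for Srebf2. Of 54 values of the other named genes 4 reversed: Lss (-6.35) without BPA replicate 1, Fdft1 (-0.57) and Hsd17b7 (-1.61) without BPA replicate 2, and Insig2 (-0.23) without normal replicate 1. Their spans were -6.35 to 1.61 for Lss, -0.57 to 1.64 for Fdft1, -1.61 to 10.4 for Hsd17b7 and -0.23 to 0.92 for Insig2. The cause was not tested. Scaling by DESeq2's size factors shifted the median gene by 0.14 (log2), and 328 higher and 429 lower genes then had an unadjusted p under 0.05. That split was 397 and 193 with no filter on low counts and 117 and 1095 with edgeR's earlier quasi-likelihood method, an alternative added after the data were seen. With a library left out an arm holds a lone sample, which is assumed to vary like the other group. At a false discovery rate of 0.01 in the authors' deposited table, all 3 peaks and 99.0% of all peaks passed. A search of the peaks for an m6A motif was not run, as no genome of their build was used.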
